A study of Gallus gallus with 4 samples.

Results

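The genes described here were those whose ratio between FOXL2 plasmid and control plasmid exceeded by at least 4-fold, in prehierarchical granulosa cells of the chicken, the same ratio in preovulatory ones. They numbered 72 of the 10639 genes that reached 1 FPKM on average, or 0.677%, and 13819 genes were listed in any of the 4 tables. FPKM is a count of sequenced fragments made comparable between genes by dividing by transcript length, and between libraries by dividing by the mapped total. Members were chosen by 4 measured values, 1 per library, on the scale of log2(FPKM + 1). The prehierarchical log2 ratio of FOXL2 to control had to exceed the preovulatory one by at least 2. That difference is therefore a description, and no test of it is given.

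Granulosa cells are the somatic cells around the oocyte. In the laying hen, follicles grow in a pool of small yellow follicles, the prehierarchical stage, until one is selected into the hierarchy of large follicles that ovulate in turn. Before selection granulosa cells are little differentiated, and afterwards they acquire the capacity to respond to luteinizing hormone and to make progesterone. Among the regulators of these cells is FOXL2, a forkhead factor needed for ovarian development, which in mammals is known to repress steroidogenic genes.

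The study had 4 groups with 1 library each. Primary granulosa cells of hens aged 26 weeks came from small yellow follicles (prehierarchical) or from F2 to F4 follicles (preovulatory). Culture was in M199 with 5% serum, at 39°C. After 18 h the cells received pcDNA3.1 carrying FOXL2, or pcDNA3.1 alone, and 48 h later they were collected. All 4 groups thus went through culture and lipid-based transfection, and no untransfected group was used here. The sources used here do not give the breed, the number of hens or whether cells were pooled. With 1 library per group no value below has a replicate error, and phase and cell preparation cannot be told apart. In such bulk libraries, fewer cells of a type and less RNA per cell cannot be told apart.

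The tables listed between 12600 and 12724 genes per library, with a median of 10.8 to 13.7 FPKM, and no read totals were used, so depth is unknown. A smallest step in FPKM was gauged from 447 genes with 1 transcript that were missing from 1 or 2 tables. They were picked because their 2 lowest listed values agreed within 5%. A floor on the lowest value left out the smallest steps, so the step may be set too high. Its median was 0.23 FPKM. Taken as a single fragment, that step puts 1 FPKM at about 4.35 fragments and 5 FPKM at about 21.7 in such a gene. None of the 13819 gene identifiers matched the reference gene table, and the files do not pair them with names. Gene symbols, roles and sequences are therefore not given. Levels of FOXL2 itself and of granulosa markers are not analysed here, and the plasmid and cell labels stand without that check. Members are called by their rank in mean FPKM, with rank 1 the most abundant, and 4 of them also by identifier.

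The column headings of 2 libraries, preovulatory control and prehierarchical FOXL2, carry an extra number (1 and 2) after the part that tells the plasmids apart. Those of the other libraries carry no such extra number. The extra numbers differ from each other, so the headings show no label that these 2 libraries share. The sources used here do not say what these numbers mark. They fall on the libraries in which the members were high. The contrast that chose the members is the contrast between these 2 libraries and the other 2, so whatever the numbers mark cannot be told apart from a plasmid ratio that differs between phases.

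All 72 members had a ratio above 1 in prehierarchical cells and below 1 in preovulatory cells. These signs come from the values that chose the members, and a difference of this size favours opposite signs, since the ratios of all genes centre near 1 in both phases. With the FOXL2 plasmid they were higher in prehierarchical cells by a median log2 ratio of 1.54, with a range of 0.26 to 4.05. In preovulatory cells the median was -1.19 and the range -3.32 to -0.47. The lowest value of each range came from the rank 39 member, which had no listed value for preovulatory FOXL2 and was taken as 0 there. Among members listed in all 4 tables the lowest preovulatory log2 ratio was -2.08. Over all 10639 genes the medians were -0.05 and 0.00. The members' share of all FPKM was 0.144% with control and 0.427% with FOXL2 in prehierarchical cells, against 0.425% with control and 0.199% with FOXL2 in preovulatory cells. The share was thus nearly the same in the preovulatory control as in prehierarchical cells with FOXL2. These shares rest on the values that chose the members, and single abundant genes weigh heavily in them. The rank 2 gene alone had 593 FPKM in prehierarchical cells with FOXL2 and 52.7 FPKM in the preovulatory control. Nothing is therefore read from the match.

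**Figure D1:**
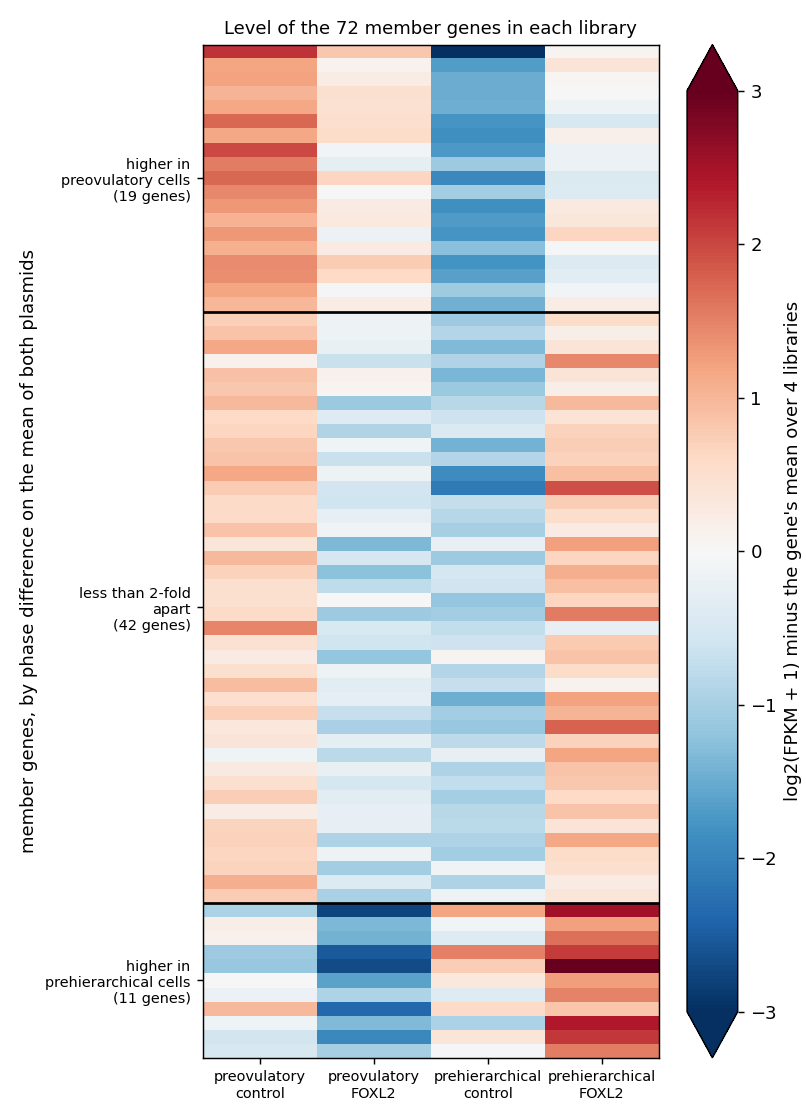
Level of each of the 72 members (rows) in the 4 libraries (columns), as log2(FPKM + 1) minus the gene's own mean; red is above and blue below that mean, and black lines part 19 genes higher in preovulatory cells, 42 genes less than 2-fold apart and 11 genes higher in prehierarchical cells on the mean of both plasmids. The highest library of every row is preovulatory control or prehierarchical FOXL2, which follows closely from how the genes were chosen.

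In prehierarchical cells 61 of the 72 members were at least 2-fold higher with FOXL2, where 1.06% of all genes were. In preovulatory cells 43 members were at least 2-fold lower with FOXL2, where 0.949% of all genes were. Both held for 32 members, or 0.301% of all genes, since any gene with both is a member by the rule. The prehierarchical ratio alone passed 2-fold for 29 members and the preovulatory ratio alone for 11. The prehierarchical log2 ratio was the larger in size for 53 members and the preovulatory one for 19. The balance of the sides differed with the pseudocount, with which the members were chosen again, so the set of genes changed too. With 0.1 FPKM there were 151 members, 109 at least 2-fold higher on the prehierarchical and 111 at least 2-fold lower on the preovulatory side. With 5 FPKM there were 22, and these counts were 18 and 13. These counts rest on the values that chose the members, so nothing is read from them against the background.

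**Figure D2:**
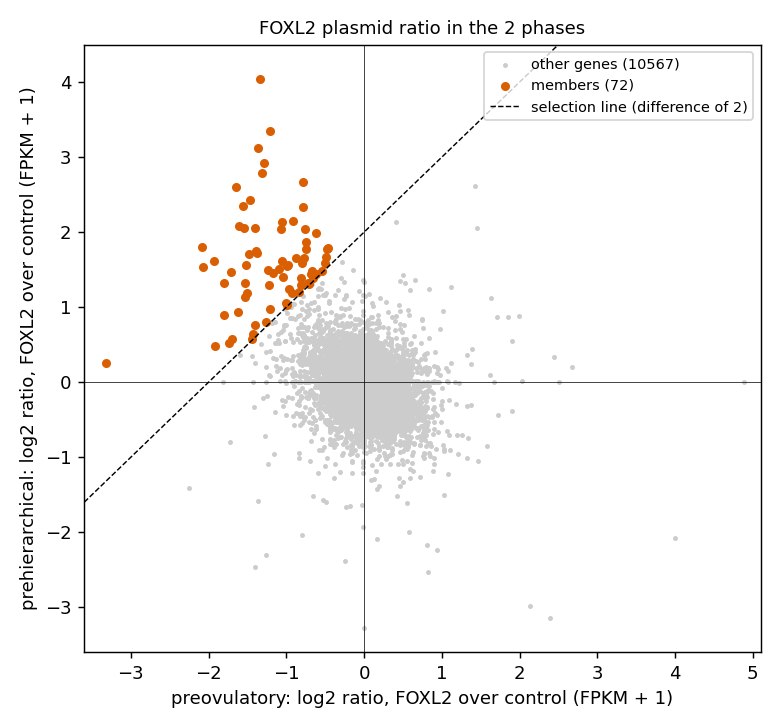
Log2 ratio of FOXL2 to control plasmid in preovulatory (x axis) and prehierarchical cells (y axis), each on FPKM + 1; 1 point is 1 gene, orange points are the 72 members, and the dashed line marks the difference of 2 that chose them. All members lie to the upper left, above 0 on the y axis and below 0 on the x axis.

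The difference between the log2 ratios ran from 2.01 to 5.39 with a median of 2.60, and it was at least 3 for 26 members and at least 4 for 6. The values were continuous across the threshold. The members just inside it had differences of 2.01 and 2.02, and the genes just outside it both had 1.99. The one closest inside, at rank 11, had 12.2 FPKM with control and 31.6 with FOXL2 in prehierarchical cells, against 80.0 and 48.6 in preovulatory cells. The gene just outside had 3.28 and 9.64 FPKM in prehierarchical cells and 1.23 and 0.40 in preovulatory cells.

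Among members that averaged 5 FPKM or more and were listed in all 4 tables, ENSGALG00000011668 (rank 25) had the highest prehierarchical ratio of FPKM + 1. It stood at 1.24 FPKM with control and 36.1 with FOXL2 in prehierarchical cells, and at 15.5 with control and 5.52 with FOXL2 in preovulatory cells. The prehierarchical FOXL2 library was the highest and the prehierarchical control the lowest, 29.1-fold apart in FPKM. By the fragment step given earlier, that control value would rest on few fragments. The log2 ratios on FPKM + 1 were 4.05 and -1.34, and their difference of 5.39 was the largest of all members. With a pseudocount of 5 FPKM the difference was 3.68. ENSGALG00000023622 (rank 42) followed, at 0.92 FPKM with control and 18.5 with FOXL2 in prehierarchical cells, and at 2.39 and 0.47 FPKM in preovulatory cells. It was at or below 2.39 FPKM in every library except prehierarchical FOXL2, again few fragments by that step, and its log2 ratios were 3.35 and -1.21. Their difference was 4.55, and 2.42 with a pseudocount of 5 FPKM.

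On the preovulatory side, among the same members, ENSGALG00000013033 (rank 14) had the lowest ratio of FPKM + 1. Without the added 1 FPKM other members were lower, among them ENSGALG00000023622, whose control was 5.09-fold its FOXL2 level against 4.48-fold here. The preovulatory levels of ENSGALG00000023622 were only 2.39 and 0.47 FPKM, which by the fragment step given earlier would rest on few fragments. ENSGALG00000013033 stood at 56.5 FPKM with control and 12.6 with FOXL2 in preovulatory cells, and at 15.4 and 56.2 FPKM in prehierarchical cells. The pair of high values and the pair of low values were each nearly equal across phases, so that the plasmid order was turned round between them. Its log2 ratios were -2.08 in preovulatory and 1.80 in prehierarchical cells. ENSGALG00000007785 (rank 26) was at 39.4 FPKM with control and 8.65 with FOXL2 in preovulatory cells, and at 2.11 and 8.02 in prehierarchical cells. Here the preovulatory control stood above the other 3 libraries, the FOXL2 libraries were close to each other, and the log2 ratios were -2.07 and 1.54.

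The other members with a difference of at least 4 were of mixed abundance. Rank 5 had 4.08 FPKM with control and 43.1 with FOXL2 in prehierarchical cells, and 186 and 71.5 FPKM in preovulatory cells, a difference of 4.48. Rank 23 had 2.63 and 24.1 FPKM in prehierarchical cells and 28.8 and 11.0 FPKM in preovulatory cells, a difference of 4.10. In both, the preovulatory control was highest and the prehierarchical control lowest. The members at ranks 49 and 59 had differences of 4.26 and 4.21 and reached 7.89 and 6.57 FPKM in the prehierarchical FOXL2 library, while no other library passed 3.49 FPKM for either. By the fragment step given earlier, their low values would rest on few fragments.

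A mean of 30 FPKM or more was found for 15 members. They held 74.6% of the members' FPKM in the preovulatory control and 73.0% in the prehierarchical FOXL2 library. All 15 were at least 2-fold higher with FOXL2 in prehierarchical cells, where 1.06% of all genes were. Of the 15, 8 were also at least 2-fold lower with it in preovulatory cells, and both held for 0.301% of all genes. These counts and the order of the libraries rest on the values that chose the members, so nothing is read from them. The median log2 ratios of the 15 were 1.56 and -1.01. The preovulatory control was the highest library for 12 of them and the prehierarchical FOXL2 library for 3. The prehierarchical control was the lowest library for 12.

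The most abundant member was at 109 FPKM with control and 344 with FOXL2 in prehierarchical cells, and at 385 and 209.6 in preovulatory cells. Its levels in preovulatory cells with control and in prehierarchical cells with FOXL2 were close, and the prehierarchical control was lowest. Rank 3 had the same order, with 52.0 and 109.5 FPKM in prehierarchical and 174 and 85.9 in preovulatory cells. Rank 4 had 29.7 and 100.4 FPKM in prehierarchical and 171 and 64.9 in preovulatory cells. In these 3 genes the FOXL2 libraries of both phases lay between the control libraries.

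The members at ranks 6, 7, 9, 10, 11 and 12 also had both FOXL2 libraries between the controls, at lower levels. Rank 6 had 15.5 and 67.0 FPKM in prehierarchical and 117 and 55.5 FPKM in preovulatory cells. Rank 7 had 15.6 and 47.8 FPKM in prehierarchical and 107 and 54.0 FPKM in preovulatory cells. In all 6 the prehierarchical control lay between 12.2 and 16.6 FPKM and the preovulatory control between 65.8 and 117 FPKM. With FOXL2 they lay between 31.6 and 67.0 FPKM in prehierarchical and between 39.6 and 58.2 FPKM in preovulatory cells. Over these 6 genes the ranges of the phases were thus far apart with the control plasmid and overlapped with FOXL2. The narrower gap with FOXL2 in each is fixed by grouping genes whose FOXL2 libraries both lay between the controls. Ranks 5 and 15 likewise had both FOXL2 libraries between the controls. They were left out of these ranges, which they would widen. Rank 5 had 4.08 and 43.1 FPKM in prehierarchical and 186 and 71.5 FPKM in preovulatory cells. Rank 15 had 5.50 and 15.0 FPKM in prehierarchical and 72.7 and 30.4 FPKM in preovulatory cells.

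The abundant members at ranks 2, 8 and 13 were highest in prehierarchical cells with FOXL2. Rank 2 was higher in prehierarchical cells with either plasmid, at 236 FPKM with control and 593 with FOXL2, against 52.7 and 14.4 FPKM in preovulatory cells. Its phase difference was wider with FOXL2 than with control. The rule fixes this for any member that is higher in prehierarchical cells with control. Rank 8 had 22.8 and 119 FPKM in prehierarchical and 47.2 and 26.9 FPKM in preovulatory cells. Rank 13 had 27.6 and 70.3 FPKM in prehierarchical and 33.8 and 11.0 FPKM in preovulatory cells. In the latter the control libraries of the 2 phases were nearly equal.

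**Figure D3:**
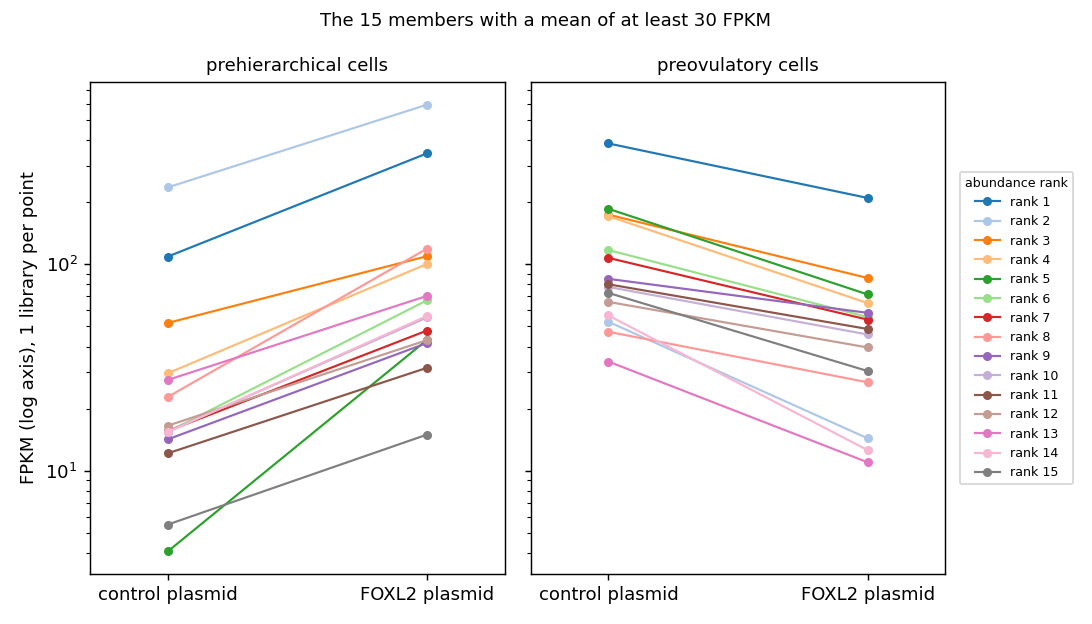
FPKM on a log axis of the 15 members that averaged 30 FPKM or more, with control and FOXL2 plasmid, in prehierarchical (left) and preovulatory cells (right); each point is 1 library and each line joins the values of 1 gene. Every line rises on the left and falls on the right, and the steepest on the left is the rank 5 gene, from 4.08 to 43.1 FPKM.

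Read by phase instead of by plasmid, the same 4 values took 3 main forms. With the control plasmid 56 members stood at least 2-fold higher in preovulatory cells, where 7.41% of all genes were. With the FOXL2 plasmid 35 members were at least 2-fold higher in prehierarchical cells, where 7.69% of all genes were. Both held for 19 members and 0.179% of all genes, so that the phase with the higher level changed with the plasmid. The difference in phase ratios is the same quantity as the difference in plasmid ratios, so these shares follow from the rule and nothing is read from them. Over all genes the median phase log2 ratio was 0.17 with control and 0.23 with FOXL2, and these shifts were not removed.

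In the commonest form, with 35 members, the phases were at least 2-fold apart with control, preovulatory higher, and less than 2-fold apart with FOXL2. In 13 members it was the reverse, with the phases less than 2-fold apart with control and prehierarchical cells at least 2-fold higher with FOXL2. The phases were at least 2-fold apart in the same direction with both plasmids for 3 members higher in prehierarchical and 2 higher in preovulatory cells. The gap between phases was the wider with control for 44 members and the wider with FOXL2 for 28. In 52 members the level was higher in preovulatory cells with control and higher in prehierarchical cells with FOXL2. For a member this is the same as preovulatory control and prehierarchical FOXL2 both standing above the other libraries. That order was found in 7.06% of all genes. Another 14 were higher in preovulatory cells with both plasmids, and 6 were higher in prehierarchical cells with both. The counts of these forms restate the values that chose the members. For the other forms the shares over all genes were not counted, and nothing is read from any of these counts.

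**Figure D4:**
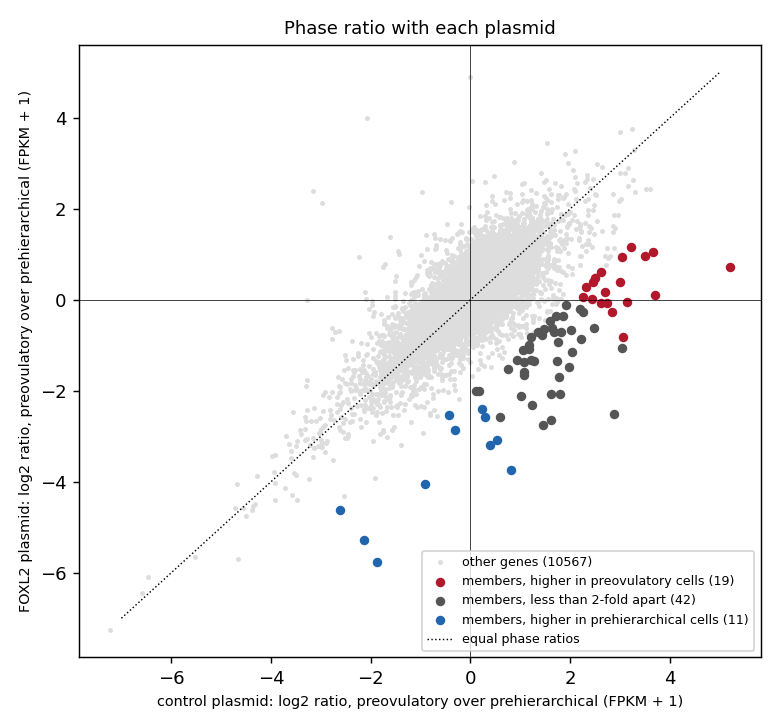
Log2 ratio of preovulatory to prehierarchical cells on FPKM + 1, with the control plasmid (x axis) and the FOXL2 plasmid (y axis); coloured points are members, by their phase difference on the mean of both plasmids, grey points are other genes and the dotted line marks equal ratios. Members lie below the line by at least 2, because the rule chose them so, and 52 of them are to the lower right, above 0 on the x axis and below 0 on the y axis.

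The order of the libraries restates the values that chose the members and is no separate support. The preovulatory control was the highest library for 41 members and the prehierarchical FOXL2 library for 31. The prehierarchical control was the lowest for 50 members and the preovulatory FOXL2 library for 22. The commonest order, in 37 members, had the preovulatory control highest and the prehierarchical control lowest. In 18 members the prehierarchical FOXL2 library was highest and the preovulatory FOXL2 library lowest, and in 13 it was highest with the prehierarchical control lowest. For 52 members, the same ones as counted by phase above, both of the high libraries stood above both of the low ones. This order was found in 7.06% of all genes and is favoured by the rule.

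The rule did not use the mean phase difference, which averages the phase ratios of both plasmids. Both come from the same 4 values, however, and 1 outlying library moves both, so nothing is read from the shares below. On the mean phase difference, 19 members (26.4%) stood at least 2-fold higher in preovulatory cells, against 6.46% of all genes. In prehierarchical cells 11 members (15.3%) were at least 2-fold higher, against 7.49%. The other 42 were less than 2-fold apart. With the median ratios of all genes set to 0, the same members split into 17 and 14, and all genes into 414 higher in preovulatory and 1034 higher in prehierarchical cells, against 687 and 797 as deposited. The shares were of similar size among the 27 genes with the reverse difference (0.254% of all genes), whose FOXL2 ratio was at least 4-fold lower in prehierarchical cells. Of these, 6 (22.2%) were at least 2-fold higher in preovulatory and 4 (14.8%) in prehierarchical cells. Among the 27, 18 averaged under 5 FPKM and 14 (51.9%) were missing from at least 1 table. The reverse genes numbered 118 with a pseudocount of 0.1 FPKM and 3 with 5 FPKM. The difference between the members and these genes was not tested, since each group had 1 library.

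The 19 members higher in preovulatory cells included 6 that averaged 30 FPKM or more. Their phase log2 ratio had a median of 2.84 with control and 0.29 with FOXL2. The smaller gap with FOXL2 is fixed by the rule for any member grouped this way. Rank 5 had the largest mean phase difference in that direction, 2.96. At rank 31, a member had 22.6 and 10.1 FPKM with control and FOXL2 in preovulatory cells and 0.87 and 4.33 FPKM in prehierarchical cells. It was one of 2 members that were still at least 2-fold higher in preovulatory cells with FOXL2.

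The 11 members higher in prehierarchical cells had a median phase log2 ratio of -0.30 with control and -3.18 with FOXL2. The wider gap with FOXL2 is again fixed by the rule and the grouping. In 3 of them the level was already at least 2-fold higher in prehierarchical cells with control. Beside the rank 2 gene these were the members at ranks 19 and 24. Rank 19 had 29.7 and 45.0 FPKM with control and FOXL2 in prehierarchical cells and 4.04 and 0.86 FPKM in preovulatory cells. Rank 24 had 9.66 and 53.2 FPKM in prehierarchical cells, and in preovulatory cells 1.93 FPKM with control and no listed value with FOXL2. Its mean phase log2 difference of -3.81 was the lowest of the members.

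The mean plasmid difference, averaged over the phases, is the other contrast at right angles to the rule. It too comes from the values that chose the members, so nothing is read from its shares. It was small for most members, with a median of 0.26 and a range of -1.53 to 1.36, against a median of -0.02 over all genes. It was above 0 for 53 members (73.6%), which are the genes whose prehierarchical ratio was the larger in size. It was above 0 for 14 of the 27 reverse genes and for 43.4% of all genes, and the difference between these sets was not tested. At least 2-fold higher with FOXL2 on this mean were 2 members, ENSGALG00000011668 at 1.36 and ENSGALG00000023622 at 1.07, where 0.169% of all genes were. At least 2-fold lower was 1 member, where 0.132% of all genes were. That member, at rank 39, had 9.00 FPKM with control and no listed value with FOXL2 in preovulatory cells, against 6.61 and 8.09 FPKM in prehierarchical cells.

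Members were found at all levels of expression. The mean was under 5 FPKM for 29 members (40.3%), against 19.3% of all genes. It was between 5 and 30 FPKM for 28, and at least 30 FPKM for 15. The share of genes that were members was 1.71% at 1 to 3 FPKM, 0.876% at 3 to 10 FPKM, 0.41% at 10 to 30 FPKM, 0.469% at 30 to 100 FPKM and 0.354% at 100 FPKM and over. The spread of the same difference over all genes narrowed with level, with an SD of 0.78 in the lowest class and 0.42 in the highest. The reverse genes had means of up to 21.3 FPKM. At 10 to 30 FPKM there were 2 of them, and at 30 FPKM and over there were 0, against 15 members. Both sets were chosen on the same contrast, on which the numbers in the column headings also fall. The difference between the sets was not tested, and nothing is read from it. In the 5 classes the members' median prehierarchical log2 ratio lay between 1.33 and 1.64.

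**Figure D5:**
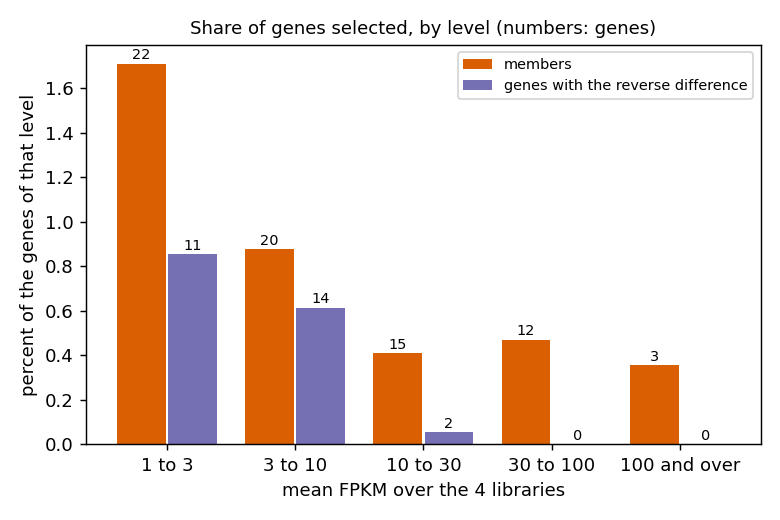
Percent of genes in each class of mean FPKM that were members (orange) or had the reverse difference (purple), with the number of genes above each bar. Members occur in every class, with 12 at 30 to 100 FPKM and 3 at 100 FPKM and over, where there are 0 reverse genes. Both sets were chosen on the same contrast, and the difference between them was not tested.

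A total of 14 members (19.4%) were missing from at least 1 table, against 1.16% of all genes, and 1 was missing from 2 tables. They were taken as 0 in 7 cases for the preovulatory FOXL2 library and in 8 cases for the prehierarchical control, and in 0 cases for the other libraries. A member taken as 0 in a low library had to pass the filter through its other libraries. A 0 there also favours a large difference, so these shares are no support for the pattern. The means of these 14 members ran from 1.14 to 16.2 FPKM. The member missing from both low tables, at rank 68, had 2.06 FPKM in the preovulatory control and 3.23 in the prehierarchical FOXL2 library. By the fragment step given earlier, that would be few fragments in each. More than 1 transcript was annotated for 3 members (4.17%) and for 5.21% of all genes.

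The number of members depended on the pseudocount. It was 151 with 0.1 FPKM, which gives low genes more weight, and 22 with 5 FPKM, and 43 with the filter at a mean of 5 FPKM.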

How the data were processed

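RNA was sequenced in 4 libraries, 1 for each of preovulatory and prehierarchical granulosa cells with control or FOXL2 plasmid. The tables that the authors deposited hold FPKM per Ensembl gene, per the file headers. Bowtie, RSEM and build galGal4 are named in the submitters' processing notes. The sources used here give neither versions nor parameters. The tables list genes from 0.01 FPKM, and a missing gene was taken as 0. Since RSEM divides fragments among similar transcripts, a gene with a near-identical copy is uncertain.

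Ratios were taken as log2(FPKM + 1) without further scaling, which understates changes of low genes, after a filter at a mean of at least 1 FPKM. Members and thresholds were chosen with earlier results of these data known. No model was fitted: with 1 library per group an additive fit would take as its error the contrast that chose the members. Identifiers were printed for the 2 members with the highest prehierarchical and the 2 with the lowest preovulatory ratio, among those that averaged 5 FPKM or more and were listed in all 4 tables; the rest are named by rank. Lists of granulosa, theca and other markers and of pathways needed symbols and are not analysed here. Alternatives were pseudocounts of 0.1 and 5, no filter, a filter of 5 FPKM, median log2 ratios set to 0, and genes listed in all 4 tables. Computation used pandas 2.3.3, numpy 2.4.6 and matplotlib 3.10.9 under Python 3.11.15.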

Additional observations from a re-analysis of the deposited data

Results flagged for a closer look

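Listed first are the 32 members at least 2-fold higher with FOXL2 in prehierarchical and at least 2-fold lower with it in preovulatory cells. They were 0.301% of all genes. The single library pairs of the phases moved opposite ways for all 72 members, and for these 32 by at least 2-fold in both. The members were chosen on the difference between the log2 ratios, and it was not tested, since each group had 1 library. The prehierarchical minus preovulatory difference in log2 ratios is also listed for the genes given by identifier. It was 5.39 for ENSGALG00000011668 and 4.55 for ENSGALG00000023622, which were picked by their prehierarchical ratio. For ENSGALG00000013033 and ENSGALG00000007785, picked by their preovulatory ratio, it was 3.88 and 3.60. Other members had larger differences than the latter genes, among them rank 5 at 4.48. The extra numbers in the column headings, which are not the same number, fall on preovulatory control and prehierarchical FOXL2, where the members were high. What they mark is not known, and its part in these differences was not tested.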

How the results depend on the processing

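With each alternative the members were chosen again. With a pseudocount of 0.1 FPKM there were 151 members: 109 were at least 2-fold higher with FOXL2 in prehierarchical cells, 111 lower in preovulatory cells, 69 both, 101 higher in preovulatory cells with control, 83 higher in prehierarchical cells with FOXL2, 92 apart between phases on the mean of plasmids and 35 apart between plasmids on the mean of phases. With 5 FPKM there were 22, and these counts in the same order were 18, 13, 9, 15, 10, 8 and 0. With the filter at 5 FPKM there were 43, with 38 higher with FOXL2 in prehierarchical and 28 lower in preovulatory cells, 32 higher in preovulatory cells with control and 19 higher in prehierarchical cells with FOXL2. Without a filter the count apart between plasmids on the mean of phases was 5, against 3. The other 26 counts were within 1.5 times. All 72 members were kept with 0.1 FPKM, without a filter and with medians set to 0, and the 22, 43 and 58 chosen with 5 FPKM, with the higher filter and from genes in all 4 tables were all among them. With 5 FPKM the preovulatory log2 ratios of ENSGALG00000011668 and ENSGALG00000023622 were -0.96 and -0.43, and the prehierarchical one of ENSGALG00000007785 was 0.87. No library could be left out, since the rule uses all 4. No paired analysis was possible because each group had 1 library. By the step of 0.23 FPKM taken as a single fragment, values near 1 FPKM would rest on few fragments.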
